A study of Mus musculus with 30 samples.

Results

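Brain RNA of mice lacking Clpp was compared with brain RNA of wild-type littermates on 6 of the 30 arrays of the series, picked by their tissue and genotype labels. The knockout group held 3 arrays labelled ClpP KO and the wild-type group 3 arrays labelled wild type, all from mice on a C57BL/6 background with no treatment named. The labels give neither an age nor the part of the brain that was taken. They do not say that the 3 replicates of a group are separate animals, so the spread between replicates may be technical. Unless the brain arrays alone are named, the SEs and p-values below use each gene's spread within groups, pooled over all 10 tissue and genotype groups. Values are deposited log2 expression levels from RMA, a method that corrects background, equalises the arrays and summarises the probes of each probe set. A difference of 1 on this scale is a doubling, and the medians of the 6 brain arrays lay between 3.35 and 3.38, so a level near 3 is close to the floor. Each of 17097 genes was read from 1 probe set, the one that was brightest on average over the series.

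ClpP is the peptidase component of a protein-degrading machine of the mitochondrial matrix, where rings of ClpP receive unfolded proteins from the chaperone ClpX. Interferons are antiviral cytokines that bind receptors on most cell types, and the transcription factor complex they activate binds a short element in the promoters of interferon-stimulated genes. In brain the products of these genes include RNA-binding antiviral proteins, GTPases that attack the vacuoles of intracellular parasites, and the MHC class I machinery that shows peptides to T cells.

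The targeted transcript was near the floor on the knockout arrays. Clpp read 3.11, 3.0 and 3.21 on the knockout arrays and 8.15, 7.95 and 7.79 on the wild-type arrays, a fall of 4.86 ± 0.19 on the log2 scale (SE, n = 3 arrays per group; limma adjusted p = 9.72e-15). A second Clpp probe set gave a change of -4.93. All 6 arrays matched their genotype labels on this gene.

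The tissue label was checked against markers of brain regions, and the 6 arrays did not hold the same regions. The 3 knockout arrays and wild-type replicates 1 and 2, the 5 alike arrays, carried cerebellum and hindbrain transcripts and were near the floor for several cortex and hippocampus markers. Wild-type replicate 3 carried transcripts of cortex, hippocampus and pituitary. Neurod6, a transcription factor of cortical and hippocampal pyramidal neurons, read 2.65, 2.57 and 2.83 on the knockout arrays, 2.73 and 2.74 on wild-type replicates 1 and 2 and 6.79 on wild-type replicate 3. Gh, the growth hormone of the anterior pituitary, read 3.30, 2.88 and 2.88 on the knockout arrays, 2.72 on both wild-type replicates 1 and 2 and 11.70 on replicate 3. The reverse held for Slc6a5, the glycine transporter of hindbrain and spinal inhibitory neurons, at 7.50 to 7.91 on the 5 alike arrays and 3.61 on replicate 3.

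Some lists gave the same split and others did not. The mean level of 18 measured cortex and hippocampus genes was 4.86 to 5.01 on the 5 alike arrays and 7.50 on wild-type replicate 3, and 16 of the 18 were highest there. The mean level of 16 cerebellum genes was 8.19 to 8.52 on those arrays and 6.71 on replicate 3, so that array held cerebellum transcripts too, at a lower level. For 17 hindbrain and spinal cord genes the values were 3.95 to 4.61 and 2.80. The lists of striatum (4.80 to 4.97 against 5.04 on replicate 3), hypothalamus (3.52 to 3.75 against 3.74) and olfactory bulb (4.71 to 4.91 against 4.73) differed little or not at all. Of 15 pituitary genes 5 were highest on replicate 3 and 1 was lowest there. Among these 5, Prl, the prolactin gene, read 9.17 on replicate 3 against 2.50 to 2.72 elsewhere, and Cga, the shared subunit of the pituitary glycoprotein hormones, 7.31 against 2.37 to 2.55. Pairs of brain arrays that included replicate 3 correlated at r = 0.974 to 0.977 across genes, and the 10 other pairs at 0.992 to 0.996. On replicate 3, 105 genes lay at least 2 above the nearest other brain array and 13 at least 2 below it.

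**Figure D1:**
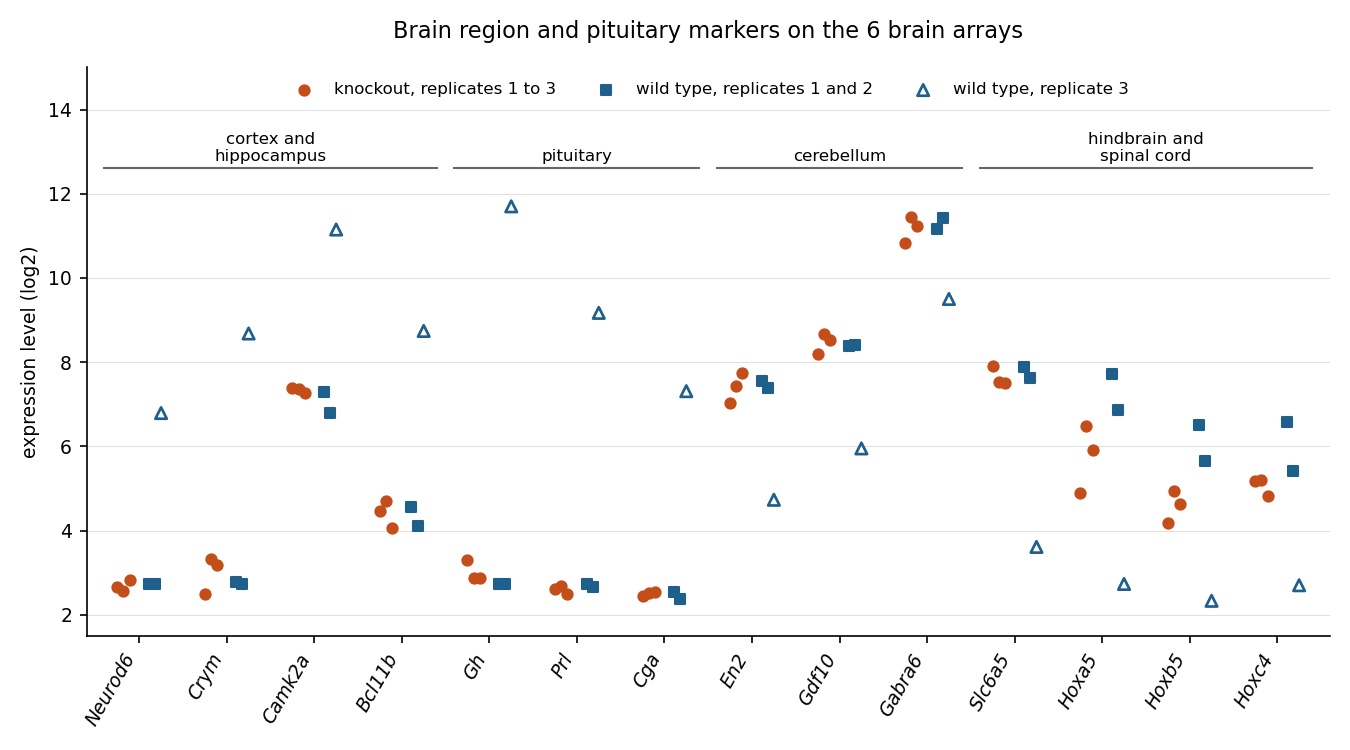
Expression level (log2) of 14 region and pituitary markers on each brain array. Circles are the 3 knockout arrays, filled squares wild-type replicates 1 and 2, and the open triangle is wild-type replicate 3, which reads 11.70 for Gh and 6.79 for Neurod6 where the other arrays lie near the floor, and 3.61 for Slc6a5 where they lie between 7.50 and 7.91.

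The 5 alike arrays were not identical in region either. Of 13 measured Hox genes, which mark hindbrain and spinal cord positions, 8 were lower on all 3 knockout arrays than on wild-type replicates 1 and 2, where 13.2% of all genes were. Hoxb5 read 4.17, 4.95 and 4.64 on the knockout arrays and 6.50 and 5.65 on those wild-type arrays. Hoxa5 read 4.9, 6.48 and 5.92 against 7.71 and 6.87. Knockout replicate 1 alone carried transcripts of serotonin neurons, with Tph2, the serotonin-synthesising hydroxylase, at 5.88 against 2.46 to 3.18 on the other arrays and the serotonin transporter Slc6a4 at 5.56 against 2.49 to 3.64. The main results below are therefore given with and without wild-type replicate 3. The part that dissection played in any of them was not tested, except where a value is given.

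With all 6 arrays, 71 genes passed an adjusted p of 0.05, which is 0.415% of the genes tested and is what a call means below. The knockout was higher in 40 of them (0.234%, the rises) and lower in 31 (0.181%, the falls), Clpp included. Leaving out wild-type replicate 3 gave 56 calls (0.328%), 28 rises (0.164%) and 28 falls (0.164%). Of the 40 rises 27 were called in both fits, and of the 31 falls 12 were. All 40 rises kept a positive and all 31 falls a negative change without replicate 3. A fit of the 6 brain arrays alone, which takes each gene's spread from brain, called 25 genes (0.146%), 23 of them rises (0.135%) and 2 of them falls (0.0117%). Single arrays moved the counts. Without knockout replicate 3, 21 rises and 13 falls were called, without knockout replicate 2, 18 falls, without wild-type replicate 1, 69 rises and 89 falls, and without wild-type replicate 2, 66 falls.

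**Figure D2:**
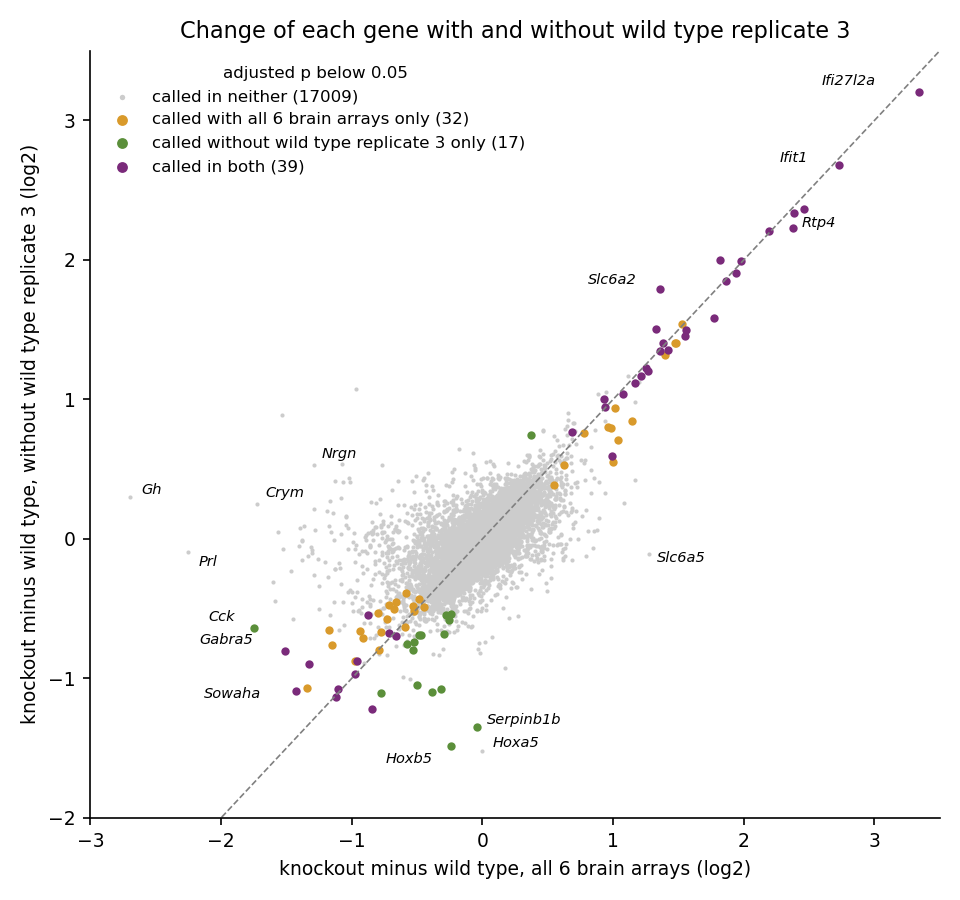
Change of each gene (knockout minus wild type, log2) with all 6 brain arrays on the horizontal axis and without wild-type replicate 3 on the vertical axis, coloured by the fit in which the gene passed an adjusted p of 0.05. The rises, led by Ifi27l2a at 3.34, lie near the dashed line of equal values, while Gh moves from -2.69 to 0.30 and Prl from -2.25 to -0.09 when replicate 3 is left out and Hoxb5 moves from -0.24 to -1.48. Clpp, called in both, lies outside the axes.

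Interferon-stimulated genes made up most of what rose in the knockout brain. Of the 40 rises, 27 belonged to a list of type I interferon-stimulated genes, of interferon-inducible GTPases or of MHC class I genes, which together held 64 measured genes. Of 38 measured interferon-stimulated genes 17 rose and none fell, 32 had all knockout arrays above all wild-type arrays (9.18% of all genes did), and the median change was 0.69, where that of all genes was 0.02. Without wild-type replicate 3, 15 rose and the median was 0.72. The mean level of the list was 4.60 to 4.85 on the knockout arrays and 3.68, 3.80 and 3.68 on wild-type replicates 1, 2 and 3, so the groups were apart and replicate 3 read like the other wild-type arrays.

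The IFIT genes encode proteins that bind viral RNA ends and block its translation. Ifit1 read 5.44, 5.33 and 6.10 on the knockout arrays and 2.82, 3.07 and 2.80 on the wild-type arrays, a rise of 2.73 ± 0.19 (SE; 6.62-fold; adjusted p = 1.79e-09). Ifit3 read 7.88, 8.02 and 8.43 against 5.31, 6.18 and 5.45, a rise of 2.46 ± 0.23 (adjusted p = 1.66e-07). Both genes had their highest value on knockout replicate 3, and neither group reached into the other. The third measured member, Ifit2, read 4.35, 4.48 and 4.82 against 4.0, 3.76 and 4.13, and its change of 0.59 ± 0.17 did not pass (adjusted p = 0.21).

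The promoters of 5 of the genes that rose are shown because they carry, close to the start, the letters of the element to which the interferon-activated complex binds. Each is the 250 bases before the annotated start, from RefSeq's table for GRCm38.p6, written 5′ to 3′ on the gene's own strand, with matches to the interferon-stimulated response element, searched as GAAA, any 2 bases and GAAA again on both strands, in capitals.
Ifit1, chr19:34640639-34640888, plus strand: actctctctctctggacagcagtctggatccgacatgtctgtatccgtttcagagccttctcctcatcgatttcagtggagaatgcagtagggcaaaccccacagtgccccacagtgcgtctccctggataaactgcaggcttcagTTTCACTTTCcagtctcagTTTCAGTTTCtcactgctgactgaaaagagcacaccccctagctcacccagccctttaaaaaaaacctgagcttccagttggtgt
Ifit3, chr19:34583279-34583528, plus strand: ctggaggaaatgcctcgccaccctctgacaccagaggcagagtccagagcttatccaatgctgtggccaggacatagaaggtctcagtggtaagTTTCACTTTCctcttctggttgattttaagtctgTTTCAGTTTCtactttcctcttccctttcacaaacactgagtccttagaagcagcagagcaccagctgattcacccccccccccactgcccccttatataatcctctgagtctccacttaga
Rsad2, chr12:26456453-26456702, minus strand: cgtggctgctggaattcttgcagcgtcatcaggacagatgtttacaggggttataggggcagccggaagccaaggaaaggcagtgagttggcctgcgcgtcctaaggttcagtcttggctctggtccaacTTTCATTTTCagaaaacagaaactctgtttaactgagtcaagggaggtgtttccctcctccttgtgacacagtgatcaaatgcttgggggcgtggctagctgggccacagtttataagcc
Tgtp1, chr11:48992247-48992496, minus strand: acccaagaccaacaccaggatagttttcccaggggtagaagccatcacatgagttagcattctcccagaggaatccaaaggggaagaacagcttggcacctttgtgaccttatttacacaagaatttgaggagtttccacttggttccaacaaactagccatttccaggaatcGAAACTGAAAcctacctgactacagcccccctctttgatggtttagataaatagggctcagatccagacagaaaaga
Igtp, chr11:58199306-58199555, plus strand: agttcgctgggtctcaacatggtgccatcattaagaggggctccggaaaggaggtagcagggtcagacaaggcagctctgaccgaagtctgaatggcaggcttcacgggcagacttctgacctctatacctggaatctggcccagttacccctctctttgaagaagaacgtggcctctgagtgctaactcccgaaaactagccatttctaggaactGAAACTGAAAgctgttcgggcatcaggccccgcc
Ifit1 holds 2 matches, whose first letters lie 104 and 85 bases before the start, and Ifit3 holds 2, at 156 and 122 bases, all on the strand opposite the gene. Rsad2 has 1 at 120 bases, Tgtp1 1 at 77 bases and Igtp 1 at 34 bases. The promoters of Ifit1 and Ifit3 share a stretch of 13 bases that includes a match, agtttcactttcc, found in 3 of the 27025 genes of the promoter table. Those of the GTPase genes Tgtp1 and Igtp share 14 bases beside their matches, aaactagccatttc, found in 4 genes. Of the interferon and GTPase genes that rose, 18 had a promoter in the table and 10 of these held the letters (55.6%), as did 11 of 30 called rises (36.7%) and 1 of 22 called falls (4.55%), against 3.46% of all genes in the table. A match is a run of letters and not a shown binding site.

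Other antiviral effectors rose with them. Rsad2, which encodes viperin, an enzyme that makes a chain-terminating nucleotide, read 5.57, 5.81 and 6.22 on the knockout arrays and 4.03, 4.0 and 3.98 on the wild-type arrays, a rise of 1.86 ± 0.16 (adjusted p = 3.81e-08). Of the oligoadenylate synthetase family, which activates RNase L, Oasl2 rose by 1.36 ± 0.18 and Oas1g by 1.17 ± 0.17, whereas Oas2 (0.58), Oasl1 (0.29) and Oas3 (-0.05) did not pass. Ifitm3, a membrane protein that holds viruses in endosomes, read 8.0, 8.07 and 8.51 against 6.61, 6.96 and 6.60, a rise of 1.47 ± 0.29 (adjusted p = 0.0151) that did not pass without wild-type replicate 3 (1.41; adjusted p = 0.0684). The dynamin-like Mx1 read 2.49 to 2.92 on all 6 arrays and Mx2 3.0 to 3.55, near the floor in both genotypes.

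The largest rise was that of Ifi27l2a, a small hydrophobic protein of the Ifi27 family, at 6.44, 5.94 and 6.72 on the knockout arrays against 2.89, 3.44 and 2.74, or 3.34 ± 0.52 (10.16-fold; adjusted p = 0.000953). Its relative Ifi27 was among the most abundant of the list, at 9.52, 9.40 and 9.38 against 7.92, 8.05 and 7.70, and rose by 1.55 ± 0.12 (adjusted p = 1.54e-08). In both genes the lowest knockout array was over 1 above the highest wild-type array. Rtp4, a chaperone of G protein-coupled receptors that is induced by interferon, read 6.48, 6.35 and 6.87 against 4.29, 4.16 and 4.09, a rise of 2.39 ± 0.19, although its other probe set differed by 0.17. Lgals3bp, a secreted galectin-binding glycoprotein, read 6.51, 6.24 and 6.38 against 4.32, 4.63 and 4.36, a rise of 1.94 ± 0.24.

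Regulators of the pathway were among both the called and the uncalled genes. Usp18, the protease that removes Isg15 from proteins and dampens the interferon receptor, read 4.61, 4.79 and 5.20 on the knockout arrays and 2.46, 2.84 and 2.70 on the wild-type arrays, a rise of 2.20 ± 0.19 (adjusted p = 6.39e-08). Irf7, the factor that amplifies type I interferon production, rose by 0.93 ± 0.20 from a level near the floor (4.08 to 4.38 against 3.17 to 3.41; adjusted p = 0.0283). The ubiquitin ligases Trim30a and Trim25 rose by 1.56 ± 0.17 and 0.68 ± 0.14, and Dtx3l and Parp9, which act together in ubiquitylation and ADP-ribosylation, by 0.78 ± 0.16 and 1.22 ± 0.12. Xaf1, a pro-apoptotic protein, read 5.85, 6.10 and 6.51 against 5.10, 5.31 and 5.23, a rise of 0.94 ± 0.18, with another probe set at 0.08. Irf9 (0.61 ± 0.15; adjusted p = 0.0748) and Stat2 (0.50 ± 0.19; adjusted p = 0.445), parts of the complex itself, did not pass. Isg15 was not analysed here.

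Sensors and cytokines at the head of the pathway were not called, although several of them had the groups apart. Of 19 measured genes of nucleic acid sensing 0 were called by limma, 4 had an unadjusted p below 0.05 (7.91% of all genes did), 8 had all knockout arrays above all wild-type arrays (9.18% of all genes), and the median change was 0.09. The RNA sensor Ifih1 read 4.24, 4.06 and 4.09 against 3.44, 3.45 and 3.33 (0.72; adjusted p = 0.213), and Ddx58, the gene of RIG-I, 4.13, 3.81 and 4.16 against 3.49, 3.44 and 3.42 (0.58; adjusted p = 0.397), in both cases without overlap. Of 24 cytokine and chemokine genes 0 were called by limma (5 at an unadjusted p below 0.05), and their median change was 0.08. All knockout arrays lay above all wild-type arrays in 6 of the 24. On the 5 alike arrays 19 of the 24 read below 4, near the floor, where a change is hard to see.

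Of 11 measured interferon-inducible GTPases 7 rose and none fell, 9 had all knockout arrays above all wild-type arrays, and the median change was 1.26. Without wild-type replicate 3, 4 rose at a median of 1.21. Tgtp1 read 6.56, 6.50 and 7.06 on the knockout arrays and 4.36, 4.59 and 4.04 on the wild-type arrays, a rise of 2.38 ± 0.29 (5.19-fold; adjusted p = 2.59e-05). Iigp1 read 5.30, 5.45 and 5.61 against 3.32, 3.61 and 3.49, a rise of 1.98 ± 0.33 (adjusted p = 0.00238). These proteins, with Igtp, Ifi47 and the regulator Irgm1, are the immunity-related GTPases that load onto parasite vacuoles.

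Irgm1 rose by 1.26 ± 0.23 (adjusted p = 0.00631), and Igtp and Ifi47 by 1.53 ± 0.32 and 1.48 ± 0.30, the last pair losing the call without wild-type replicate 3 (adjusted p = 0.0684 and 0.0769) at nearly the same change (1.54 and 1.40). Irgm2 read 4.29, 4.57 and 4.43 against 3.30, 3.23 and 3.42, a difference of 1.11 ± 0.30 that did not pass (adjusted p = 0.158). Of the guanylate-binding proteins, Gbp3 rose by 1.39 ± 0.22 and Gbp2 by 0.96 ± 0.19. Gbp7 differed by 0.95 ± 0.25 without passing (adjusted p = 0.123), and Gbp4 and Gbp8 lay at 2.13 to 2.63 on all arrays. Gbp10, which was on no list, read 6.15, 6.08 and 6.24 against 4.44, 4.70 and 4.01, a rise of 1.77 ± 0.25 (adjusted p = 0.000313). Genes of these families are close copies of each other, so a probe set may read more than the gene it is named for.

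In the MHC class I pathway 3 of 15 measured genes rose and none fell, 8 had all knockout arrays above all wild-type arrays, and the median change was 0.33. The heavy chain gene H2-K1 read 8.59, 8.38 and 8.65 on the knockout arrays and 7.16, 7.20 and 6.99 on the wild-type arrays, a rise of 1.42 ± 0.19 (2.68-fold; adjusted p = 8.52e-05). It was the one member that also rose without wild-type replicate 3 (1.36; adjusted p = 0.000872). H2-D1 read 8.96, 8.99 and 8.89 against 8.12, 8.08 and 7.21, a rise of 1.14 ± 0.26 (adjusted p = 0.0434) that was 0.85 without replicate 3 (adjusted p = 0.334), and its 4 other probe sets differed by 0.04 to 0.16. Psmb8, a catalytic subunit of the immunoproteasome, read 5.13, 5.18 and 5.53 against 4.07, 3.86 and 3.73 (1.40 ± 0.28), whereas its partner Psmb10 (-0.05) and the activator subunits Psme1 (0.07) and Psme2 (0.06) did not pass. The non-classical H2-T23 read 7.30, 7.09 and 7.56 against 6.22, 6.33 and 6.76 (0.88 ± 0.23; adjusted p = 0.118). MHC class II genes, a mark of activated microglia and other professional antigen-presenting cells, had 0 members called by limma among 9 (1 at an unadjusted p below 0.05), with a median of 0.05.

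**Figure D3:**
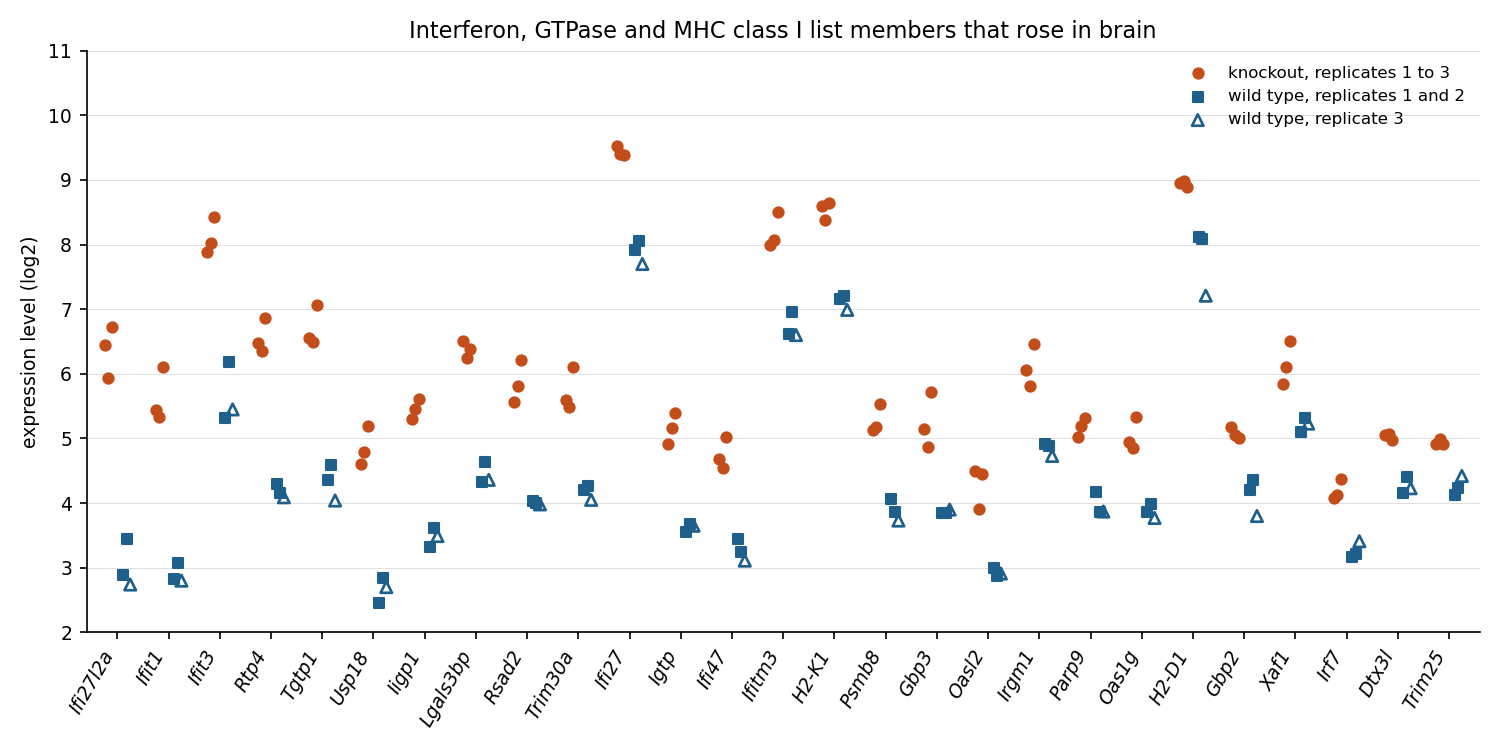
Expression level (log2) on each brain array of the 27 interferon, GTPase and MHC class I list members that rose, ordered by their change. Circles are knockout arrays, filled squares wild-type replicates 1 and 2 and open triangles wild-type replicate 3, and in each gene the lowest circle lies above the highest wild-type symbol. For H2-D1 the triangle, at 7.21, lies below both squares.

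Among the 24 interferon and GTPase genes that rose, 18 were highest on knockout replicate 3, 4 on replicate 1 and 2 on replicate 2. Of the 24, 19 were called without wild-type replicate 3 and 15 with the 6 brain arrays alone. With the other 5 brain arrays alone, a fit added after the data had been seen, 22 were called. Without knockout replicate 3, of the interferon list 12 rose and of the GTPases 3. Of the MHC class I genes 1 rose without it. Irgm1 and Xaf1 were not called without that array nor with the brain arrays alone.

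Microglia and macrophage genes were also higher on the knockout arrays than on 2 of the 3 wild-type arrays. Of 20 measured members 0 were called by limma (4 at an unadjusted p below 0.05; 0 with the 6 brain arrays alone), 7 had all knockout arrays above all wild-type arrays, and the median change was 0.33. Against wild-type replicates 1 and 2 alone, 18 of the 20 had all knockout arrays above (15.4% of all genes did) and the median was 0.49. C1qa, a chain of the complement component that microglia make, read 7.73, 7.73 and 7.76 on the knockout arrays and 6.91, 6.91 and 7.31 on the wild-type arrays (0.70; adjusted p = 0.437). In the added fit of those 5 alike arrays alone 3 members rose, C1qa among them (adjusted p = 0.0121). Cx3cr1, the fractalkine receptor of microglia, read 5.64, 5.40 and 5.78 against 4.88, 4.79 and 5.76, so that wild-type replicate 3 lay at the knockout level.

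The mean level of the microglia list was 5.36 to 5.55 on the knockout arrays, 4.96 and 4.94 on wild-type replicates 1 and 2 and 5.52 on replicate 3. The mean interferon level was 3.68, 3.80 and 3.68 on wild-type replicates 1, 2 and 3. Replicate 3 also differed in brain region, and whether the interferon rises followed the microglia level was not tested. T and B lymphocyte genes lay at the floor on every array, with list means of 2.72 to 2.81. In whole-tissue RNA more cells of a type and more RNA per cell cannot be told apart. The signal difference between the 3′ and 5′ probe sets of Gapdh, a measure of RNA integrity, was 0.33 ± 0.1 on the knockout and 0.35 ± 0.05 on the wild-type arrays (SD, n = 3).

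Of the 40 rises, 13 lay on none of the 3 lists. Several, named after their values were seen, are known as interferon-inducible: Rnf213, a giant ubiquitin ligase, read 5.85, 5.79 and 5.93 against 4.46, 4.79 and 4.55 (1.25 ± 0.11; adjusted p = 6.3e-08), although its other probe set differed by -0.12. Parp12, an ADP-ribosyltransferase, rose by 1.02 ± 0.19 and lost its call without wild-type replicate 3 (0.94; adjusted p = 0.0602). Ifi205, a relative of the DNA sensor Ifi204, rose by 1.33 ± 0.22, and Zc3hav1, the zinc-finger antiviral protein, by 0.99 ± 0.19 with all 6 arrays and 0.79 without replicate 3 (adjusted p = 0.101).

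Slc6a2, the noradrenaline transporter of brainstem neurons, was the member of the midbrain and noradrenaline list that rose. It read 5.30, 4.82 and 4.91 on the knockout arrays and 3.23, 3.21 and 4.52 on the wild-type arrays, a rise of 1.36 ± 0.23 (adjusted p = 0.00238) that was 1.79 ± 0.16 without replicate 3. The knockout values lay above all wild-type values, and replicate 3 lay closer to them than to the other wild-type arrays. Its 3 other probe sets differed by 0.21, -0.08 and 0.20, and in the brain arrays alone it did not pass (adjusted p = 0.567). Dbh, which makes noradrenaline, read 3.69, 3.66 and 3.82 against 3.75, 3.37 and 3.45 (0.20; adjusted p = 0.817). Over the 9 measured genes of that list the median change was 0.59 (0.29 without replicate 3), 6 had an unadjusted p below 0.05, and the list's mean level was 4.61 to 4.93 on the knockout and 4.31 to 4.41 on the wild-type arrays. What part regional make-up had in this was not tested. Col9a3 and Trim62 owed part of their rise to low values on wild-type replicate 3, where Trim62 read 4.30 against 5.68 and 5.62 on the other wild-type arrays, and neither passed without it (adjusted p = 0.072 and 0.0887).

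Many falls depended on single arrays. Of the 31 falls 12 kept their call without wild-type replicate 3, 27 without replicate 1 and 23 without replicate 2. Without knockout replicates 1, 2 and 3, 18, 13 and 11 were kept. In the fit of the 6 brain arrays alone 1 of the 31 was kept, Clpp, so each other fall named below rests on the pooled spread. A wild-type mean below 6 was found in 25 falls, as in 66.9% of all genes. Wild-type replicate 3 was the highest wild-type array in 18, and in 12 of them by at least 0.5 over both others. The share of all genes with that pattern was not counted. Of the falls called in both fits with the groups apart, Clpp and Spag7 had a mean of at least 6 in the wild type. Spag7, named for a sperm antigen, read 6.13, 5.85 and 6.10 on the knockout arrays and 6.63, 7.18 and 7.16 on the wild-type arrays, a fall of 0.96 ± 0.15 on the log2 scale (adjusted p = 0.000717; without replicate 3, -0.88 and 0.00827). It did not pass in the brain arrays alone (adjusted p = 0.271).

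Scn3a, Spock3 and Sowaha were among the genes that fell by over 1 with all 6 arrays and were called in both fits. Scn3a, a voltage-gated sodium channel, read 3.07, 3.14 and 2.69 on the knockout arrays and 3.91, 3.82 and 5.15 on the wild-type arrays, a change of -1.33 ± 0.20 (adjusted p = 0.000738) that was -0.90 without replicate 3 (adjusted p = 0.000138), with another probe set at 0.16. Spock3, a proteoglycan of the extracellular matrix, read 5.04, 4.0 and 3.99 against 5.58, 5.38 and 5.44 (-1.12 ± 0.17; adjusted p = 0.000573), with knockout replicate 1 closest to the wild type. Sowaha, an ankyrin-repeat protein, read 3.35, 4.46 and 3.84 against 5.16, 4.78 and 6.00 (-1.43 ± 0.21; adjusted p = 0.000573). In all 3 genes the groups were apart, and none passed in the brain arrays alone (adjusted p = 0.552 to 0.567).

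Of the subunits of GABA-A receptors, the chloride channels of inhibitory synapses, 2 of 15 fell, where 0.181% of all genes did. This family was looked at after the values were seen. Gabrg1 read 5.36, 4.45 and 4.50 against 5.60, 5.88 and 5.75 (-0.97 ± 0.16; adjusted p = 0.00238). Gabra5, a subunit of hippocampal receptors, read 4.01, 3.60 and 4.22 against 4.93, 4.55 and 6.87, so that its change of -1.51 ± 0.32 was -0.80 without replicate 3 (adjusted p = 0.00995). The median of the 15 was -0.12. Of 22 clustered protocadherins of the beta family, cell-surface recognition proteins also looked at after the fact, 3 fell, against the same 0.181% of all genes. Pcdhb9, Pcdhb17 and Pcdhb20 fell by 0.66, 0.77 and 0.71, and only the last passed without replicate 3. The family's median was -0.08, and 0.0 without that array.

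Among neuropeptide genes, the calls depended on which wild-type arrays were used. Crh, corticotropin-releasing hormone, read 2.97, 3.10 and 3.37 on the knockout arrays and 4.19, 4.54 and 3.24 on the wild-type arrays, so it overlapped at replicate 3 and fell by 0.84 ± 0.18 with that array (adjusted p = 0.0321) and by 1.22 ± 0.11 without it (adjusted p = 4.34e-07). Gal, the galanin gene, read 4.62, 4.43 and 3.88 against 5.62, 5.19 and 3.28 and fell only without replicate 3 (-1.10; adjusted p = 0.00995). Tac1, which encodes substance P, read 5.14, 4.72 and 5.0 against 5.59, 5.91 and 5.75, a change of -0.80 ± 0.16 that passed with all 6 arrays (adjusted p = 0.0176) and of -0.80 ± 0.18 that did not pass without replicate 3 (adjusted p = 0.0602). Cck, cholecystokinin, read 6.22, 6.79 and 6.27 against 7.09, 7.04 and 10.40, a cortical level on replicate 3, and passed without that array alone (-0.64; adjusted p = 0.0322). Crh, Gal and Cck are made in brainstem as well as forebrain neurons, and whether their falls followed the Hox genes was not tested.

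Several falls lost their call without wild-type replicate 3, some at a similar change. Ttll1, a tubulin polyglutamylase, read 5.72, 5.51 and 6.05 on the knockout arrays and 6.38, 7.28 and 7.65 on the wild-type arrays (-1.34 ± 0.27), and did not pass without replicate 3 (-1.07; adjusted p = 0.161). Gpr161, a receptor of primary cilia, read 3.94, 3.87 and 3.82 against 4.83, 4.23 and 6.09 and changed from -1.17 to -0.65 (adjusted p = 0.0602). The kinesin Kif21b, the membrane proteins Nkain2 and Tmem74 and the synaptic vesicle regulator Tbc1d24 lost their calls in the same way, with changes of -0.98, -0.93, -0.80 and -0.92 that were -0.87, -0.66, -0.53 and -0.71 without replicate 3.

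Conversely, 16 falls passed only without replicate 3, and on 9 of them that array lay below all knockout arrays. Hoxb5 changed from -0.24 to -1.48 (adjusted p = 0.000324) and Serpinb1b, a protease inhibitor, from -0.05 to -1.35, its values being 5.86, 6.50 and 5.86 on the knockout arrays, 7.67 and 7.17 on wild-type replicates 1 and 2 and 3.52 on replicate 3. Prr18 changed by -0.74 and Wscd2 by -0.68. Since Hoxb5 is a positional marker, falls of this kind and the make-up of the dissected tissue cannot be told apart on these arrays.

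The mitochondrial and stress gene lists had 0 members called by limma in brain. Among 23 mitochondrial proteases and chaperones the changes ran from -0.32 to 0.33 with a median of -0.03, 2 having all knockout arrays above and 1 all below (9.18% and 6.62% of all genes did) and 1 an unadjusted p below 0.05. Lonp1, the other soluble matrix protease, read 6.35, 6.27 and 6.34 on the knockout arrays and 6.22, 6.09 and 6.19 on the wild-type arrays (0.15; adjusted p = 0.894), and Hspa9, the matrix Hsp70, 8.68, 8.78 and 9.04 against 8.66, 8.84 and 8.54. The median was -0.03 over 74 mitochondrial ribosomal proteins (4 at an unadjusted p below 0.05) and 0.03 over 80 nuclear subunits of oxidative phosphorylation (3). It was -0.03 over 36 genes of mitochondrial DNA, RNA and translation (3) and 0.03 over 19 genes of the tricarboxylic acid cycle (2).

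The integrated stress response, in which Atf4 raises amino acid synthesis and transport when translation is slowed, gave 0 called of 37 measured members by limma, 5 at an unadjusted p below 0.05 (7.91% of all genes), 8 with all knockout arrays above (9.18% of all genes) and a median of 0.16. Atf4 itself read 9.25, 9.38 and 9.50 on the knockout arrays and 9.12, 8.90 and 8.77 on the wild-type arrays (0.45 ± 0.15; adjusted p = 0.327), and the amino acid transporter Slc7a5 read 6.99, 7.01 and 7.38 against 6.52, 6.60 and 6.38 (0.63; adjusted p = 0.574). In neither gene did the groups overlap. Of the 37 members 30 had a positive change, as had 9242 of all 17097 genes. The serine synthesis enzyme Psat1 (-0.07) and the aminoacyl-tRNA synthetases Gars (-0.07), Iars (-0.04), Nars (0.11) and Sars (0.31) did not pass. Neither did Phgdh (0.32), Shmt2 (0.33) or Atf5 (0.39). The same list had a median change of 0.04 in liver, 0.02 in muscle and 0.75 in heart.

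**Figure D4:**
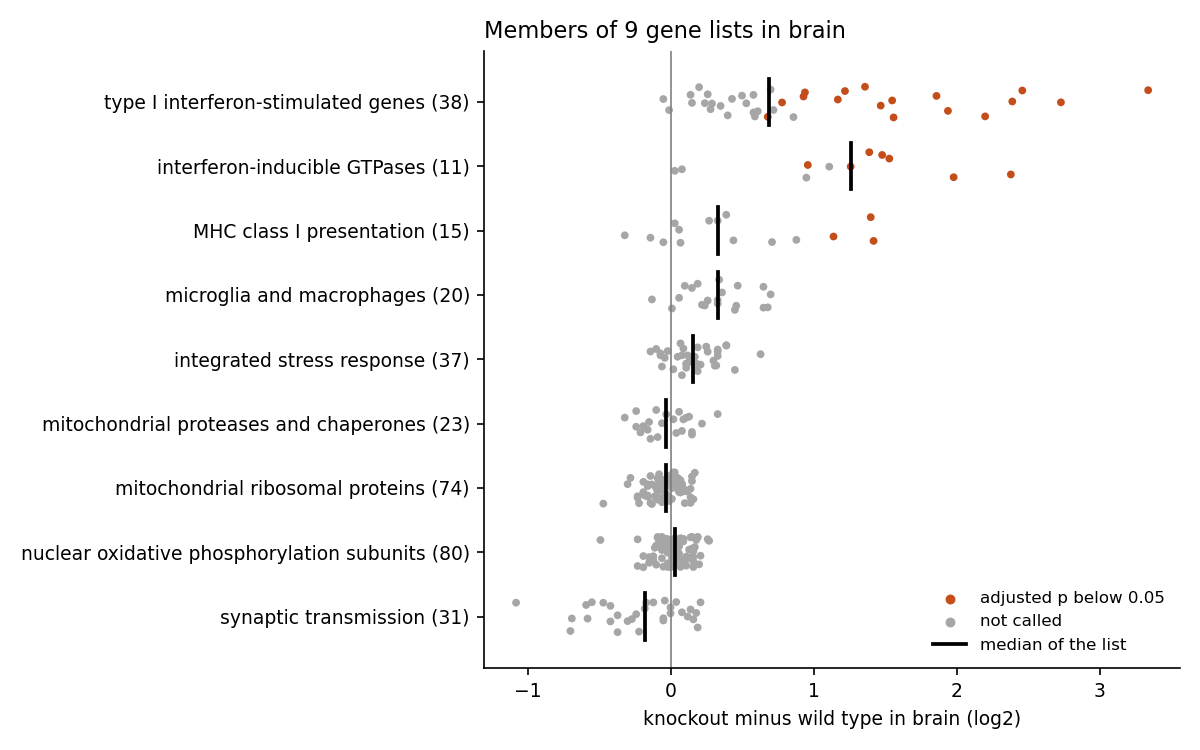
Change in brain (knockout minus wild type, log2) of each measured member of 9 gene lists, with the number of members in parentheses, called members in orange and the median as a black bar. Called members lie in the interferon, GTPase and MHC class I lists, whose medians are 0.69, 1.26 and 0.33, while the 4 stress and mitochondrial lists have medians from -0.03 to 0.16 and no called member.

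Over all 22 pathway lists, 19 had no called member, the exceptions being the 3 interferon-related ones. Of 22 lists of cell types and regions 19 had none either, and the other lists held the single genes Slc6a2, Crh and Tac1. Myelin genes (median 0.07 over 15), astrocyte genes (0.17 over 15), general neuronal genes (-0.01 over 12) and endothelial genes (0.02 over 17) had medians between -0.01 and 0.17. Synaptic transmission genes had a median of -0.18 over 31 that was 0.03 without wild-type replicate 3.

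The brain response was set against that of liver, skeletal muscle and heart, measured on 3 arrays per genotype and tissue. Of the 24 interferon and GTPase genes that rose in brain, 13 were called in liver, where 2.42% of all genes were, 16 in muscle (1.54%) and 19 in heart (2.18%). Ifit1 rose by 2.73 in brain, 1.83 in liver, 2.23 in muscle and 3.86 in heart, and Usp18 by 2.20, 2.03, 1.88 and 4.06. Ifi27l2a and Tgtp1 had their highest change of these 4 tissues in brain, Ifi27l2a with 3.34 against 1.27, -0.02 and 1.88 and Tgtp1 with 2.38 against 0.89, 1.19 and 0.86, but the difference from the mean of the other tissues did not pass for Ifi27l2a (2.31 ± 0.60; adjusted p = 0.224) or Tgtp1 (1.39 ± 0.33; adjusted p = 0.173).

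**Figure D5:**
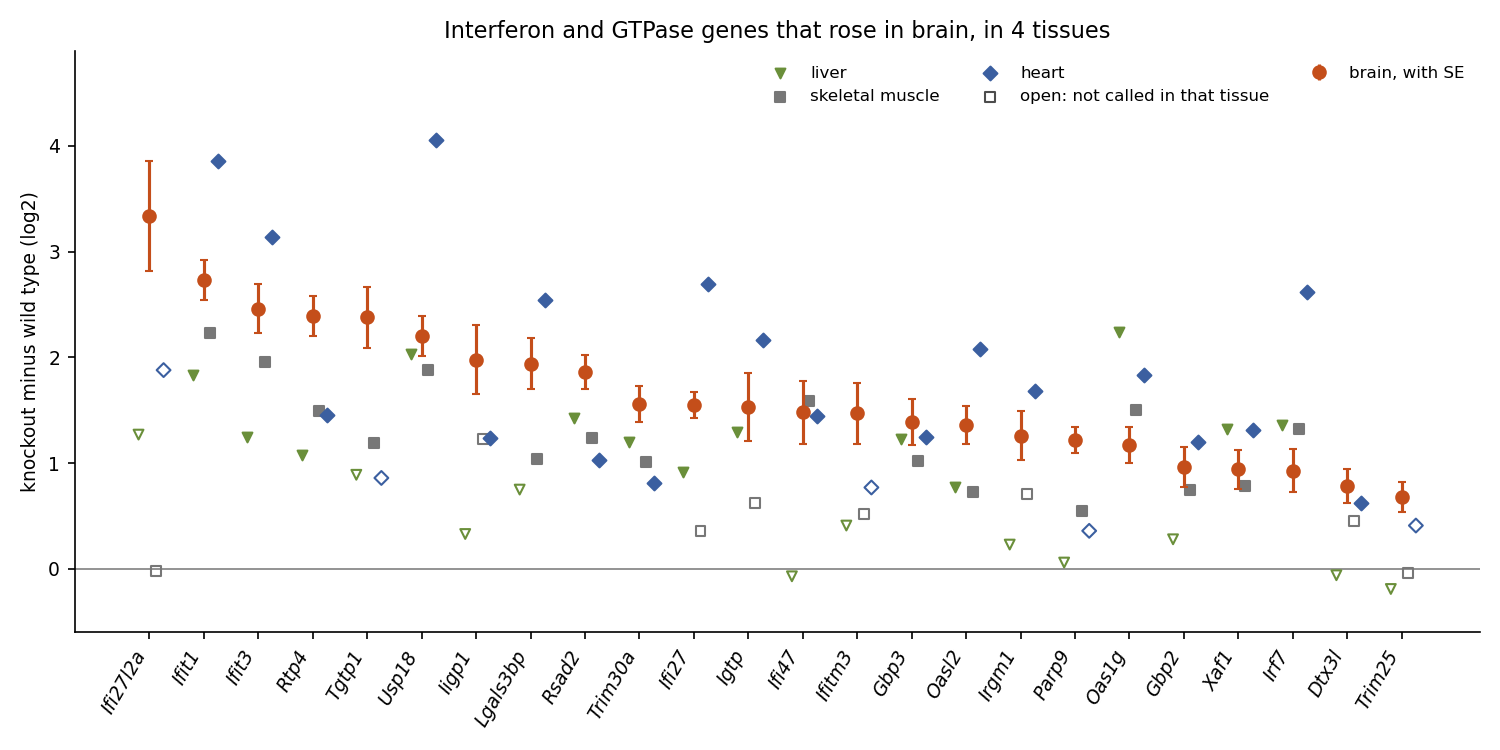
Change (knockout minus wild type, log2) of the 24 interferon and GTPase genes that rose in brain. Orange circles with SE bars are brain, and triangles, squares and diamonds are liver, skeletal muscle and heart, filled where the gene was called in that tissue. Heart exceeds brain in genes such as Usp18 (4.06 against 2.20), and for Parp9 brain lies highest at 1.22.

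The test of brain against the mean of the other 3 tissues called 6 genes (0.0351%), and 16 without wild-type replicate 3 (0.0936%), 5 of them in both. It called 0 without knockout replicate 3 (1026 at an unadjusted p below 0.05), 1 without knockout replicate 2, 41 without wild-type replicate 1 and 23 without wild-type replicate 2. Of the 24 interferon and GTPase list members that rose in brain, 1 was among them, Parp9. It read 5.03, 5.20 and 5.32 on the knockout and 4.17, 3.87 and 3.87 on the wild-type brain arrays, a rise of 1.22 where liver, muscle and heart gave 0.06, 0.55 and 0.36, a difference of 0.89 ± 0.14 (adjusted p = 0.0159; without replicate 3, 0.84 and 0.0226). Scn3a, Sowaha and Spock3 differed by -1.29, -1.54 and -1.12, with mean changes of -0.03, 0.11 and -0.01 in the other tissues. The levels of these genes in the other tissues are not given here, and a gene near the floor in a tissue cannot show a fall there. Apol9a, an interferon-inducible apolipoprotein, rose by 1.51 in liver and 2.01 in heart and lay at 2.81 to 3.14 on all brain arrays, a difference of -1.22 ± 0.22 (adjusted p = 0.0362) that did not pass without replicate 3 (adjusted p = 0.062). The wild-type arrays of each tissue are its own, so the knockout comparisons of the tissues share no array. Whether the tissues came from the same animals is not given in the labels. The comparisons do share each gene's pooled spread, so calls of the same gene in several tissues are not independent. The 15588 probe sets with no gene symbol were tested apart, and 96 of them were called in brain (0.616%), or 97 without wild-type replicate 3 (0.622%).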

How the data were processed

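The authors deposited log2 expression values made from 3′ expression arrays with RMA in R 2.14.0, per the submitters' processing notes. Whether all 30 arrays were processed together is not given in the sources used here. Arrays were hybridised with biotin-labelled cRNA copied from total RNA, per the labels' protocols.

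Of 45141 probe sets 28898 had 1 gene symbol in the platform annotation, 551 had several, 15588 had none and 104 were controls. Symbols were updated through Entrez numbers to the GRCm38.p6 table (16937 of 17097 genes matched). Each gene was read from its probe set with the highest mean over all arrays, and other probe sets are given where they differed. Groups were taken from the labels.

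In R 4.3.3, limma 3.58.1 fitted the means of all 10 groups (20 residual degrees of freedom) with eBayes, and the knockout minus wild-type contrast in brain was tested at a Benjamini-Hochberg adjusted p below 0.05 over all genes. The difference from the mean effect of liver, muscle and heart was a contrast of the same fit. Both were repeated without wild-type replicate 3 and under the alternatives of the closing section. The fit was tested on simulated data. The number of arrays limits the precision.

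The genes and gene lists were chosen with earlier results of these data known. Named by rule were Clpp, the called genes of the lists with up to 6 uncalled bright members, the largest changes kept, lost or gained without wild-type replicate 3, and the genes with the largest gap on that array. Region and microglia markers, uncalled members such as Oas2, Ifih1 and Lonp1, protocadherins, GABA-A subunits and the genes called in the brain arrays alone were chosen after their values were seen. Clone names were left out, 3 of them among the called genes.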

Additional observations from a re-analysis of the deposited data

Results flagged for a closer look

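The knockout effect in brain differed from the mean effect in liver, muscle and heart, by a test of the difference itself, for 6 genes. Parp9 was 0.89 higher in brain. Scn3a, Sowaha and Spock3 differed by -1.29, -1.54 and -1.12, and wild-type replicate 3 was the highest brain array for the first pair. The levels of these genes in the other tissues, which limit any fall there, are not given here. Apol9a differed by -1.22, having risen in liver and heart and lain near the floor in brain. The clone-named C730036E19Rik differed by 0.77 ± 0.13 (limma adjusted p = 0.0198), with changes of 0.08 in brain, -1.88 in liver, -0.10 in muscle and -0.09 in heart.

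A signal was also seen in probe sets that no comparison of genes used. Of 15588 probe sets without a gene symbol 96 were called in brain by limma (0.616%), of which 28 rose and 68 fell. Without wild-type replicate 3, 97 were called (0.622%), and 53 were called in both fits, 17 rises and 36 falls.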

How the results depend on the processing

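The direction of every rise and fall called with all 6 arrays was kept without wild-type replicate 3, and no result reversed under the alternatives run. The 40 rises became 23 with the brain arrays alone and 85 with array weights (wild-type replicate 3 weighing 0.29). They became 5 among genes with a brain mean of at least 6. Without probe sets whose name ends in _s_at, _x_at or _a_at, which leaves 15261 genes, they became 26. The 31 falls became 2, 105 and 3 under the first 3 of these, and 18 with median centring. The fit of the 6 brain arrays alone was also run with the replicate number as a block. It then called 0 rises (645 at an unadjusted p below 0.05 by limma) and 1 fall, where without the block it gave 23 and 2. Same-numbered arrays deviated together at r = -0.07, 0.13 and 0.04, so the numbers were not taken to pair the samples. Leaving out 1 array gave 21 to 69 rises and 13 to 89 falls. The 28 falls without wild-type replicate 3 became 6 in the fit of the 5 other brain arrays alone, an alternative chosen after seeing the data. The 6 genes that differed from other tissues became 2 without testis in the fit, 67 with array weights, 3 and 0 with brain means of at least 4 and 6 (523 at an unadjusted p below 0.05 for the latter), 0 to 41 with 1 array left out and 1784 with testis in the mean. The cause was not tested, except that the filters and the replicate block leave fewer genes or degrees of freedom by construction. Of 110 named genes, 83 kept their call status with the brain arrays alone, 85 without wild-type replicate 3 and 90 without knockout replicate 3. Clpp was called under all 16 alternatives that gave it a value. Signal near the floor limits the genes with levels around 3, whose fold changes are understated on this scale.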

Other observations

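Taking each gene's spread from the brain arrays alone called 4 genes that the fit over all tissues did not. Alas1, the rate-limiting enzyme of heme synthesis, read 6.41, 6.55 and 6.47 on the knockout arrays and 7.33, 7.40 and 7.42 on the wild-type arrays. Its difference of -0.91 had an SE of 0.41 in the fit of all arrays (limma adjusted p = 0.592) and of 0.08 in brain alone (adjusted p = 0.014). The other tissues gave -1.0 in liver, -0.82 in muscle, -0.90 in heart and -0.62 in testis, none of which passed (adjusted p = 0.261, 0.411, 0.324 and 0.216). C4b, a complement component that reactive glia make, read 7.08, 7.22 and 7.29 against 6.04, 6.13 and 5.93, a difference of 1.16 (adjusted p = 0.448 over all arrays and 0.0122 in brain alone). Phf20l1, a chromatin reader, read 10.20, 10.17 and 10.35 against 9.04, 9.18 and 9.01 (1.17; adjusted p = 0.145 and 0.0112). Irgm2, described above, was the last of the 4. In each of these genes the groups were apart.

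No gene within 10 Mb of Clpp was called by limma among 131 measured there. Within 20 Mb, Gm9706 rose and Rrp36 fell among 248 genes, both also without wild-type replicate 3.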
